A study of Mus musculus with 9 samples.

Results

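The 10 Notch genes described here were the receptor genes *Notch1*, *Notch2* and *Notch3*, the ligand genes *Dll1*, *Dll3*, *Jag1* and *Jag2*, and 3 genes that act inside the cell, *Rbpj*, *Numb* and *Maml1*. They were chosen by name, and the value of each gene was the sum of all its RefSeq transcript rows, 40 rows in all, in a table of estimated counts. All 10 passed the filter on low counts, and they were 10 of the 15267 protein-coding genes tested. RNA came from the cytoplasmic fraction of cortices of mice at postnatal day 0 that were heterozygous for a knock-in (KI) of the *Celf2* variant p.R493H. All 9 libraries carried this genotype, and no wild-type library was analysed here. In CELF2-KI RIP (3 libraries), RNA was immunoprecipitated with 10 μg of a rabbit antibody against CELF2 for 3 hours. In IgG RIP (3 libraries), normal rabbit IgG took the place of that antibody. The input (3 libraries) was RNA from the same kind of fraction, set aside before the immunoprecipitation. The labels call the libraries of a condition biological replicates but do not say which animals or pools each came from, so the p-values measure the spread between these libraries.

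CELF2 is an RNA-binding protein that acts in splicing in the nucleus and on the stability and translation of mRNAs in the cytoplasm. RNA immunoprecipitation (RIP) isolates the RNAs that come down with a protein, and the comparison with IgG and with input asks which of them were more abundant than in a mock precipitation and in the starting material. Notch receptors are membrane proteins that bind ligands of the Delta-like and Jagged families on a neighboring cell. Binding leads to cleavage of the receptor by ADAM proteases and γ-secretase, and the released intracellular domain joins the DNA-binding protein RBPJ and a Mastermind-like coactivator to switch on *Hes* and *Hey* genes. In the developing cortex this pathway is known for keeping radial glia, the neural stem cells, from differentiating, and NUMB is known as an inhibitor of it.

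Values per library are CPM, the usual depth-corrected count, computed over protein-coding genes on library sizes scaled by TMM, a method that assumes that most genes do not change. Protein-coding counts ranged from 13523190 to 16840230 in CELF2-KI RIP, from 9347252 to 14965224 in IgG RIP and from 55250725 to 78514665 in input. Summed over transcripts, the Notch genes had between 116 counts (*Numb*, IgG RIP) and 29770 counts (*Notch1*, input) in a library, and counts of the RIP libraries were the lower ones. Rows that matched no gene took 43.46%, 41.53% and 21.06% of the counts of IgG RIP 1, 2 and 3, and at most 12.63% in any other library. Replicates differed by more than sampling noise in every condition, and the common biological coefficient of variation was 0.221.

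The Notch genes stood above input in CELF2-KI RIP, and less so above IgG RIP. Against input, 7 of the 10 were called higher, that is at an FDR under 0.01 and at least 2-fold, where 14.6% of all tested genes were. These were *Notch1*, *Notch2*, *Notch3*, *Dll1*, *Jag1*, *Jag2* and *Rbpj*. Against IgG RIP, only *Rbpj* was called higher, 1 of 10 beside 13.4% of all tested genes, which is a share near that background. *Rbpj* was also the only Notch gene called higher than both controls, where 7.58% of tested genes were. None of the 10 was called lower by edgeR or by DESeq2, nor at an unadjusted p under 0.05 by edgeR, than IgG RIP (13.6% of tested genes), input (15.5%) or both (9.54%). Over the 10 genes, the log2 fold changes had a median of 0.57 for IgG RIP and 1.24 for input, beside -0.06 and 0.19 over all tested genes. Both comparisons share the CELF2-KI RIP libraries. In bulk RNA, more cells of a type and more RNA per cell cannot be told apart, and a RIP level is a share of the RNA recovered, not an amount.

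IgG RIP itself differed from input for these genes. *Notch1* and *Jag2* were called higher in IgG RIP than in input, 2 of 10 beside 6.79% of tested genes, and 0 of 10 were called lower (by DESeq2 also 0, and 0 at an unadjusted p under 0.05 by edgeR) beside 5.0%. The median log2 fold change of the 10 in IgG RIP over input was 0.56, and that of all tested genes was -0.00. In 5 of the 10 (*Notch1*, *Notch2*, *Notch3*, *Dll1* and *Rbpj*) the conditions were ordered with no overlap, every CELF2-KI RIP library above every IgG RIP library and these above every input library, where 5.37% of tested genes had this order. With *Numb*, 6 of the 10 had all 3 CELF2-KI RIP libraries above all 6 control libraries, where 25.2% of tested genes did. Both counts hold for TMM-scaled CPM and were not worked out under other scalings. With total counts the log2 fold change of *Notch1* over IgG RIP was -0.16, so *Notch1* does not keep its place in either count there.

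**Figure D1:**
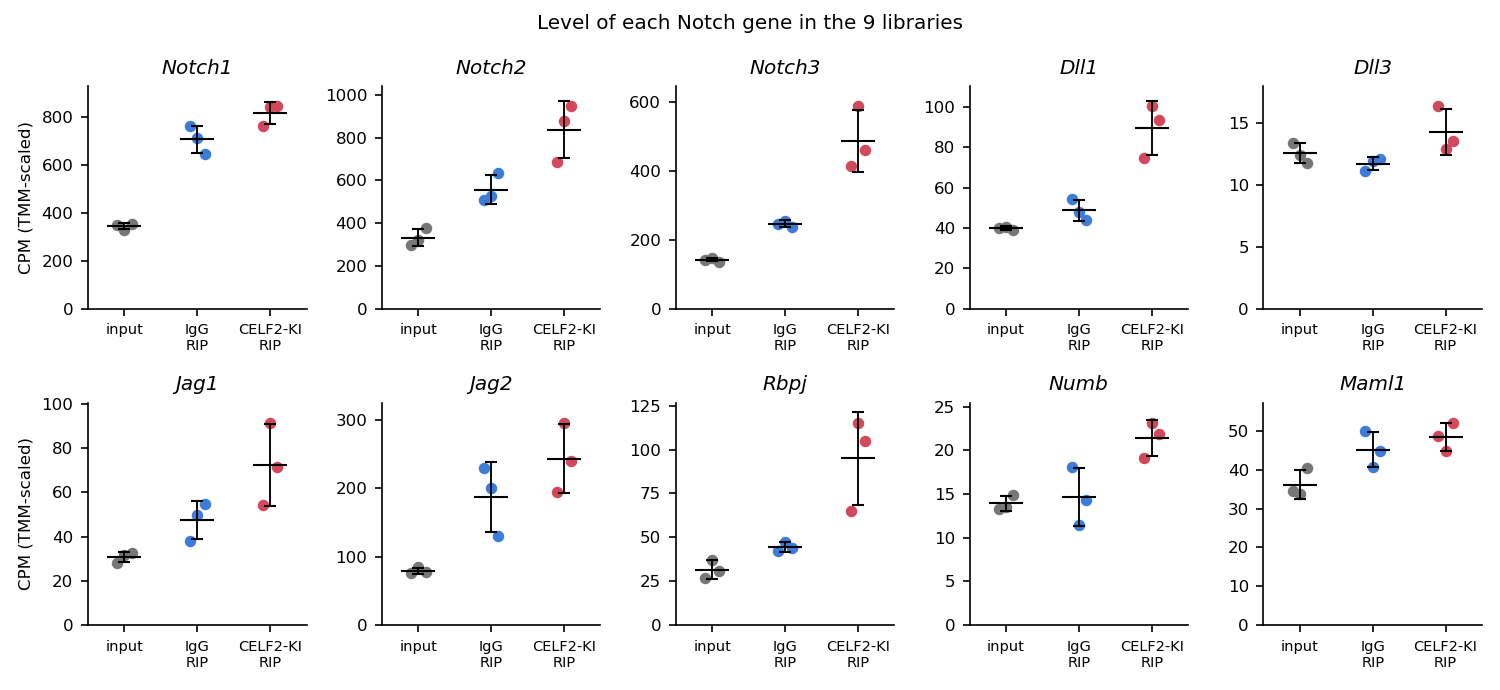
Level of each of the 10 Notch genes in CPM (TMM-scaled, linear axes from 0, a scale for each gene) in the 3 input, 3 IgG RIP and 3 CELF2-KI RIP libraries. Points are libraries, the long horizontal mark is the mean and the bar is the SD (n = 3). *Notch3*, *Dll1* and *Rbpj* step up from IgG RIP to CELF2-KI RIP with no overlap, and *Notch1* and *Jag2* step up mostly from input to IgG RIP.

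Of the receptors, *Notch3* (chr17:32120820-32166896 in GRCm38.p6) had the largest rise in CELF2-KI RIP. *Notch3* encodes the receptor known for its role in mural cells, the pericytes and smooth muscle cells of blood vessels, and it is also expressed in neural progenitors. Its CPM was 141, 145 and 136 in input, 246, 255 and 235 in IgG RIP, and 413, 586 and 460 in CELF2-KI RIP. The 3 conditions did not overlap, and CELF2-KI RIP 2 was the highest library. The mean rose from 141 ± 4.58 in input and 245 ± 9.98 in IgG RIP to 486 ± 89.7 in CELF2-KI RIP (SD, n = 3 each). The log2 fold change was 1.79 ± 0.13 (SE) over input (edgeR FDR = 4.19e-06) and 0.99 ± 0.13 over IgG RIP (edgeR FDR = 0.000126), so that it passed the FDR against IgG RIP but, at 1.98-fold, not the 2-fold threshold. *Notch3* was called higher than both controls in the fits without IgG RIP 2, CELF2-KI RIP 1 or CELF2-KI RIP 3, in which the log2 value over IgG RIP was 1.02, 1.09 and 1.03.

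*Notch1* (chr2:26457902-26503822), which encodes the receptor most studied in neural stem cells, had 349, 328 and 352 CPM in input, 759, 710 and 645 in IgG RIP, and 761, 840 and 843 in CELF2-KI RIP. Both kinds of RIP lay more than 2-fold above input in their means, and the lowest CELF2-KI RIP library lay just above the highest IgG RIP library. The log2 fold change over input was 1.25 ± 0.10 in CELF2-KI RIP (edgeR FDR = 6.97e-06) and 1.04 ± 0.10 in IgG RIP (edgeR FDR = 0.000134). Over IgG RIP it was 0.21 (95% interval -0.01 to 0.43, edgeR FDR = 0.0989), and its sign turned with total counts (-0.16), upper-quartile factors (-0.06) or TMM over coding and noncoding genes (-0.01) as the scaling. The IgG RIP call over input was kept in 15 of 23 alternatives. It was lost without input 2 (0.998) or without IgG RIP 1 (0.988), in both cases by the 2-fold threshold. Total counts (0.95), TMM over coding and noncoding genes (0.86) and the size factors or Wald test of DESeq2 (0.96 each) also lost it. So did the fit without IgG RIP 1 and 2 together (0.91), and glmTreat.

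*Notch2* (chr3:98013538-98150367), a receptor also expressed in cortical progenitors, had 299, 319 and 375 CPM in input, 509, 527 and 634 in IgG RIP, and 687, 878 and 947 in CELF2-KI RIP. The conditions did not overlap, and the gene lay between *Notch1* and *Notch3* in its change over IgG RIP. It rose over input by a log2 fold change of 1.34 ± 0.15 (edgeR FDR = 4.28e-05). Over IgG RIP the value was 0.59 ± 0.15, which passed the FDR (edgeR FDR = 0.00676) but not the 2-fold threshold.

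Among the ligands, *Dll1* (chr17:15367354-15376932), a Delta-like ligand made by newborn neurons and intermediate progenitors, had the largest log2 fold change over IgG RIP. Its CPM was 40.2, 40.7 and 39.0 in input, 54.4, 48.2 and 43.9 in IgG RIP, and 74.5, 100.5 and 93.4 in CELF2-KI RIP. IgG RIP lay only slightly above input, and every CELF2-KI RIP library lay above both. The log2 fold change was 1.16 ± 0.14 over input (edgeR FDR = 5.65e-05) and 0.87 ± 0.14 over IgG RIP (edgeR FDR = 0.000401), the latter under the 2-fold threshold. The call over input was lost in 6 alternatives, with log2 values of 0.69 under total counts, 0.77 with TMM over coding and noncoding genes, 0.92 with upper-quartile factors, 0.94 with only the 6 libraries compared and 1.07 from curated transcripts (edgeR FDR = 0.125), and with glmTreat. The value over IgG RIP ran from 0.50 with total counts to 1.87 from curated transcripts. *Dll3* (chr7:28293555-28301785), the divergent Delta-like protein that stays mostly inside the cell and is not known to activate receptors on other cells, behaved otherwise. It had 13.4, 12.4 and 11.8 CPM in input, 11.1, 11.9 and 12.04 in IgG RIP, and 16.3, 12.9 and 13.5 in CELF2-KI RIP. CELF2-KI RIP 1 and 3 exceeded all 6 controls, while CELF2-KI RIP 2 exceeded the IgG RIP libraries but fell within the range of input. Over input the log2 fold change was 0.18 (95% interval -0.14 to 0.51), and over IgG RIP 0.29 (-0.05 to 0.62), neither past the threshold (edgeR FDR = 0.298 and 0.132), and both turned negative with total counts as the scaling (-0.27 and -0.08).

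*Jag1* (chr2:137081451-137116520) and *Jag2* (chr12:112907803-112929812) encode the Jagged ligands. *Jag1* had 28.1, 31.5 and 32.5 CPM in input, 37.9, 50.0 and 54.7 in IgG RIP, and 54.5, 91.5 and 71.6 in CELF2-KI RIP. *Jag2* had 76.2, 84.4 and 78.0 CPM in input, 230, 200 and 130 in IgG RIP, and 194, 296 and 239 in CELF2-KI RIP. For both genes the RIP libraries of the 2 kinds overlapped and all of them lay above input. Over input, CELF2-KI RIP was higher by a log2 fold change of 1.24 ± 0.20 for *Jag1* (edgeR FDR = 0.000389) and of 1.61 ± 0.21 for *Jag2* (edgeR FDR = 0.000109). Over IgG RIP the values were 0.61 ± 0.20 and 0.38 ± 0.21, and neither passed the FDR (edgeR FDR = 0.0238 and 0.146). The *Jag2* value over IgG RIP turned to -0.15 when curated transcripts alone were summed and to -0.00 with total counts. *Jag2* in IgG RIP over input was 1.23 ± 0.21 (edgeR FDR = 0.00162), a call kept in 19 of 23 alternatives. It was lost without input 1 (1.18, edgeR FDR = 0.0106), without IgG RIP 1 and 2 together (0.71), without noncoding rows (0.88) and with glmTreat.

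*Rbpj* (chr5:53555779-53657445) encodes the DNA-binding protein of the pathway. Its CPM was 26.8, 37.2 and 30.9 in input, 42.3, 47.6 and 43.9 in IgG RIP, and 64.8, 115 and 105 in CELF2-KI RIP. The conditions did not overlap, and CELF2-KI RIP 1 was well below the other two libraries of its condition. The mean was 94.9 ± 26.6 in CELF2-KI RIP, 44.6 ± 2.71 in IgG RIP and 31.6 ± 5.20 in input (SD, n = 3 each). The gene rose over IgG RIP by 1.09 ± 0.21 on the log2 scale (95% interval 0.63 to 1.55, edgeR FDR = 0.00133) and over input by 1.58 ± 0.21 (edgeR FDR = 0.000109). The call against IgG RIP was lost without CELF2-KI RIP 2 (0.93) and without input 2 (0.98), and in 8 other alternatives, with values of 0.71 under total counts, 0.82 under upper-quartile factors, 0.86 with TMM over coding and noncoding genes, 0.87 from curated transcripts and 0.88 from transcripts matched by version. The log2 value over IgG RIP remained above 0 in all of them. From curated and from version-matched transcripts it also failed the FDR (edgeR FDR = 0.0658 and 0.0579). The call over input was lost there too (0.91 and 0.86, edgeR FDR = 0.0529 and 0.0573), and with glmTreat. Curated rows held 34.8%, 36.5% and 44.2% of the counts of *Rbpj* in CELF2-KI RIP.

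*Numb* (chr12:83794034-83921942) and *Maml1* (chr11:50255634-50293131) had, with *Dll3*, the 3 smallest log2 fold changes over input. *Numb*, the inhibitor of the receptors, had 13.3, 13.5 and 14.9 CPM in input, 18.1, 11.5 and 14.3 in IgG RIP, and 19.1, 23.2 and 21.9 in CELF2-KI RIP. All CELF2-KI RIP libraries were above the controls, which overlapped each other. The log2 fold changes were 0.62 ± 0.17 (input) and 0.54 ± 0.18 (IgG RIP), and neither passed (edgeR FDR = 0.011 and 0.0249). *Maml1*, a Mastermind-like coactivator, had 34.4, 33.7 and 40.4 CPM in input, 49.9, 40.8 and 44.7 in IgG RIP, and 48.6, 44.8 and 52.1 in CELF2-KI RIP. Its RIP libraries of both kinds overlapped. The log2 fold change was 0.42 ± 0.13 over input (edgeR FDR = 0.0166) and 0.10 (95% interval -0.19 to 0.39, edgeR FDR = 0.534) over IgG RIP, and the latter turned to -0.26 with total counts.

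**Figure D2:**
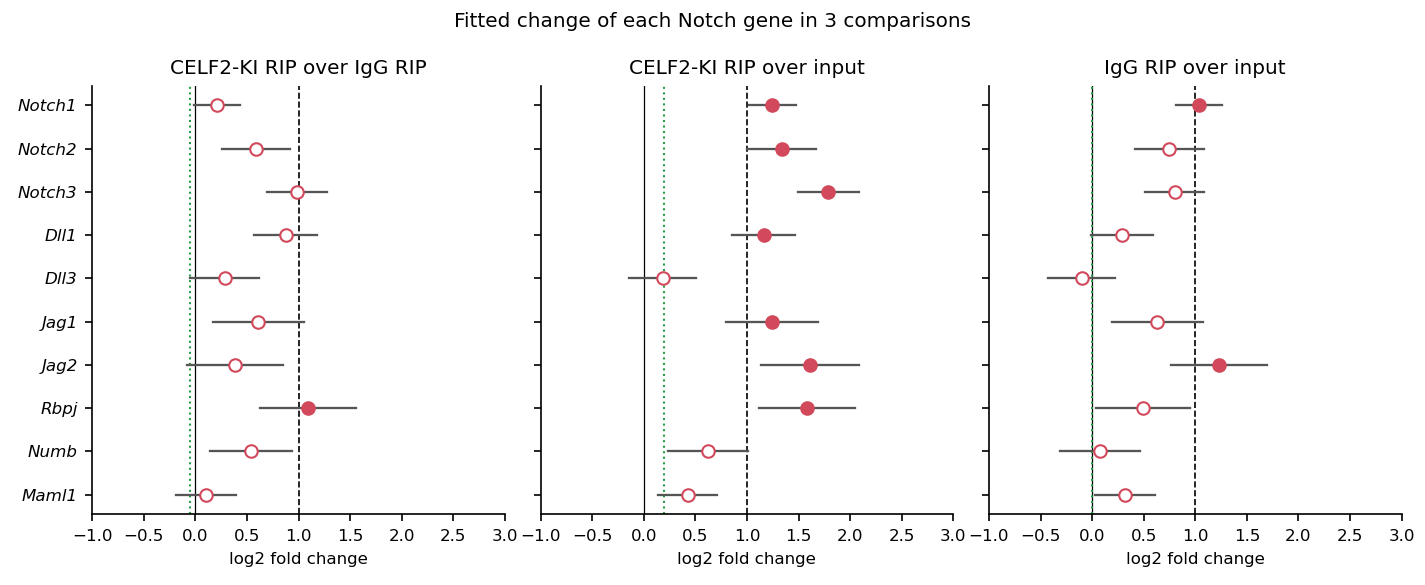
Fitted log2 fold change of each Notch gene with its 95% interval in 3 comparisons. Filled points were called (FDR under 0.01 and at least 2-fold), open points were not, the dashed line marks 2-fold and the dotted line the median of all tested genes. Only *Rbpj* is filled over IgG RIP, 7 genes are filled over input, and *Notch1* and *Jag2* are filled in IgG RIP over input.

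Ratios of counts between members of the pathway within a library do not depend on how libraries are scaled. The pairs were picked after the values were seen, and transcript length was not corrected, so only the change of a ratio between conditions can be read. The ratio of *Notch3* to *Notch1* was 0.405, 0.443 and 0.386 in input, 0.325, 0.359 and 0.364 in IgG RIP, and 0.542, 0.698 and 0.545 in CELF2-KI RIP. The ratio of *Rbpj* to *Maml1* was 0.78, 1.1 and 0.765 in input, 0.848, 1.17 and 0.981 in IgG RIP, and 1.33, 2.57 and 2.01 in CELF2-KI RIP. In both pairs every CELF2-KI RIP library exceeded all 6 controls, so that *Notch3* moved more than *Notch1*, and *Rbpj* more than *Maml1*. The share of all gene pairs that do so was not worked out. *Notch3* to *Notch2* had 0.486 to 0.668 in CELF2-KI RIP, 0.37 to 0.484 in IgG RIP and 0.363 to 0.473 in input. *Rbpj* to *Notch1* had 0.0851 to 0.137, 0.0557 to 0.068 and 0.0769 to 0.113 in the same order. *Dll1* to *Notch1* had 0.0979 to 0.12, 0.0678 to 0.0717 and 0.111 to 0.124. With *Rbpj* or *Dll1* over *Notch1*, CELF2-KI RIP lay above IgG RIP but overlapped input. The ratio of *Dll1* to *Dll3* in CELF2-KI RIP (4.57, 7.81 and 6.93) overlapped that in IgG RIP (4.92, 4.05 and 3.64). It lay above that in input (3.01, 3.28 and 3.32). The ratio of *Notch2* to *Notch1* ran from 0.902 to 1.12 in CELF2-KI RIP. It overlapped both IgG RIP (0.67 to 0.983) and input (0.856 to 1.06). That of *Jag1* to *Jag2* was 0.28 to 0.31 in CELF2-KI RIP. It overlapped IgG RIP (0.165 to 0.421) and lay below input (0.368 to 0.417). An exact permutation test of 3 libraries against 3 cannot go below p = 0.10, so no test was run on the ratios.

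The transcript rows were tested in a fit of their own, with its own scaling. Over input, the median log2 fold change was -0.14 over all tested rows and 0.19 over all tested genes. *Notch1* and *Notch2*, with 1 row each and so the same counts in both fits, had 0.76 and 0.85 over input as rows where they had 1.25 and 1.34 as genes, which took them under the 2-fold threshold though their rows passed the FDR (edgeR FDR = 0.00108 and 0.00766). Of the 40 transcript rows, 26 passed the filter and 7 were listed at 0 in every library. Against IgG RIP, edgeR called 0 of the 26 higher, where 3.19% of all 39137 tested rows were, and 0 lower, where 3.15% were. At an unadjusted p under 0.05, 6 rows were higher and 1 lower, and DESeq2 called 3 higher (XM_017317293.1 of *Notch3*, NM_007865.3 of *Dll1* and XM_006503799.2 of *Rbpj*) and 0 lower. Against input, edgeR called 1 row higher, NM_008716.2 of *Notch3* (log2 fold change 1.44, edgeR FDR = 0.000634), beside 0.94% of tested rows, and 0 lower beside 4.51%, and DESeq2 called 6 higher. In IgG RIP against input, 1 row was higher, XR_872705.2 of *Jag2* (4.08, edgeR FDR = 0.00616), beside 0.879% of tested rows, and 0 were lower beside 1.65%.

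For *Notch1*, *Notch2* and *Dll3* the table held 1 row each, and for the other genes the mix of transcripts differed between libraries. The curated coding row NM_007865.3 of *Dll1* held 45.8% ± 4.10 of the counts of the gene in input and 44.2% ± 8.95 in CELF2-KI RIP but 18.7% ± 11.9 in IgG RIP (SD, n = 3 each). The predicted coding row of *Jag1* held 26.5% ± 3.17 in IgG RIP. It held 7.36% ± 0.558 in input and 12.8% ± 3.40 in CELF2-KI RIP. In IgG RIP over input this row had a log2 fold change of 2.22 and the curated row of *Jag1* 0.04, and neither was called. In *Jag2* the predicted coding row XM_011243998.2 held 9.76%, 17.1% and 20.7% in input and 37.3%, 41.8% and 34.2% in CELF2-KI RIP. In IgG RIP it held 0.545%, 21.7% and almost none, and the row was called in no comparison (log2 fold change 2.40 ± 1.63 over IgG RIP and 2.37 ± 1.62 over input, SE). Noncoding rows of *Jag2* held 35.2%, 19.2% and 19.3% in IgG RIP and at most 8.37% in any other library, and without noncoding rows the log2 fold change of *Jag2* in IgG RIP over input was 0.88 and was no longer called. In *Rbpj*, the row XM_017320742.1 held 23.6% of the counts in CELF2-KI RIP 2, the highest library, and none or almost none in the other RIP libraries. Another predicted coding row of *Rbpj* went the other way, with 2.51% in CELF2-KI RIP 2 beside 34.7% and 23.7% in CELF2-KI RIP 1 and 3.

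*Numb* was the gene whose sum is least certain as a measure of its coding mRNA. All 4 of its curated coding rows were listed at 0 in every library, and its counts lay in 2 noncoding rows and in predicted coding rows. The noncoding rows held 63.4%, 51.3% and 70.3% in input, 77.9%, 14.8% and 0.0066% in IgG RIP, and 43.6%, 34.5% and 45.9% in CELF2-KI RIP. A single predicted row, XM_006515578.1, held 99.1% in IgG RIP 3. The genomic span of *Numb* also overlaps those of 4 other annotated genes.

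**Figure D3:**
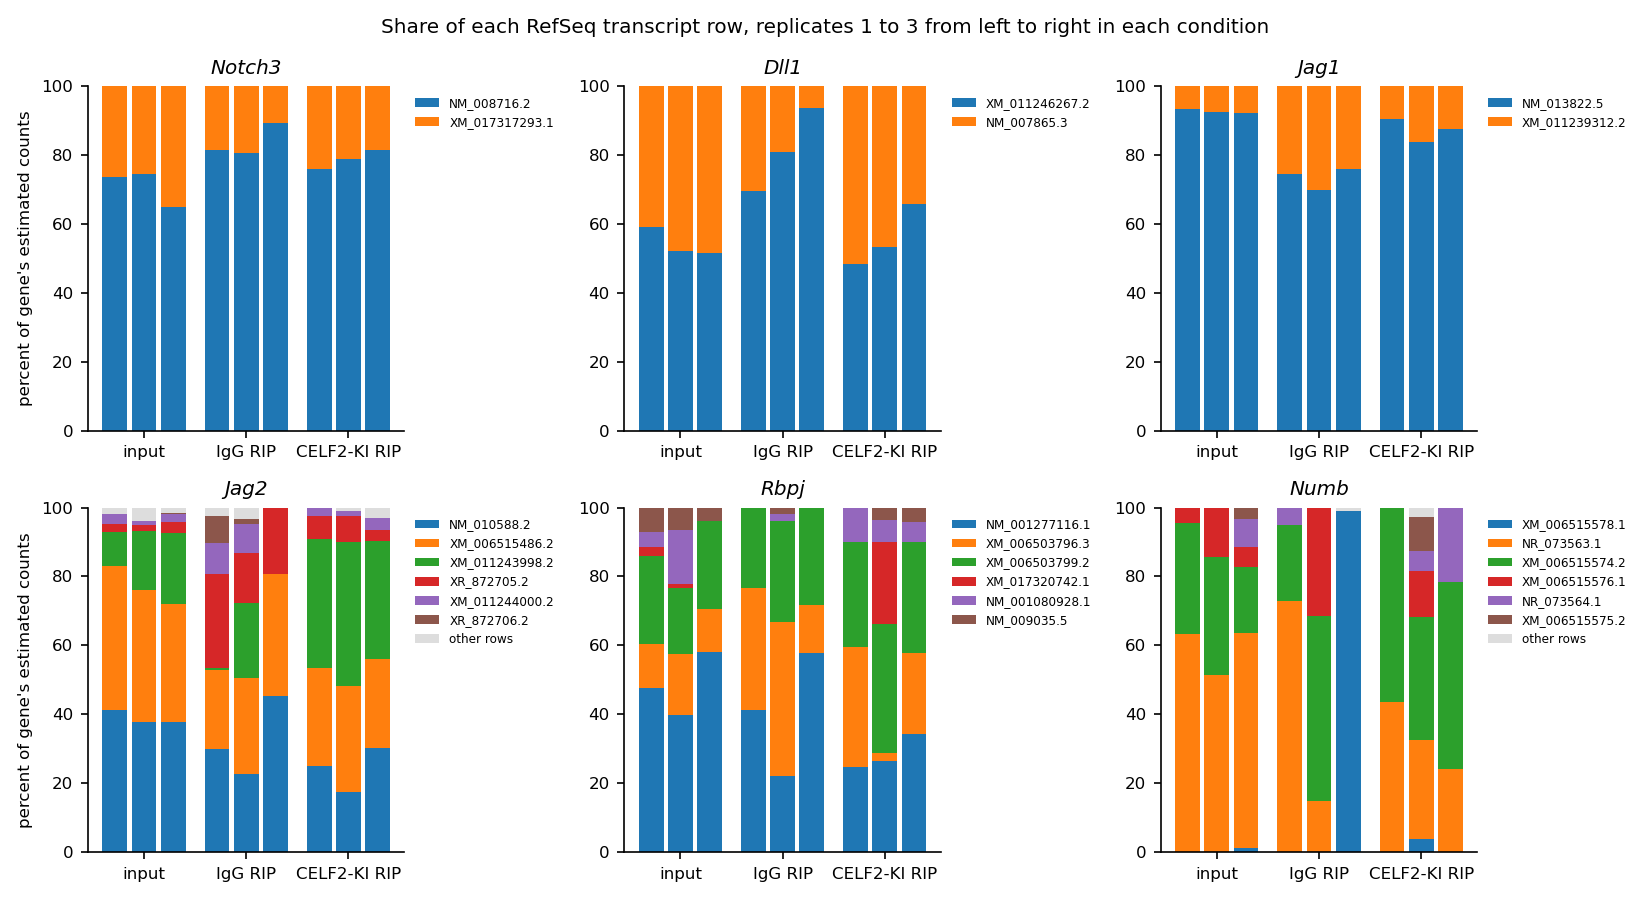
Percent of the estimated counts of a gene assigned to each of its RefSeq transcript rows, in the 3 libraries of each condition from left to right, for 6 of the Notch genes. Rows that never reached 5% of the gene are drawn together in light grey. The mix in *Dll1*, *Jag1*, *Jag2* and *Numb* differs most in IgG RIP, and that of *Numb* differs between the 3 IgG RIP libraries.

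The other genes of the pathway did not move in 1 direction. Of 46 listed genes that make, modify, cut, relay or read out Notch signals, 45 were tested. Against IgG RIP 11 were called higher and 6 lower, beside 13.4% and 13.6% of all tested genes. Against input 8 were higher and 6 lower, beside 14.6% and 15.5%. Than both controls, 6 were called higher and 5 lower, beside 7.58% and 9.54%. The counts against input and the count lower than IgG RIP are near those shares. The same shares apply to the groups by role below, each of which holds few genes. The median log2 fold change of the 45 was 0.10 over IgG RIP and 0.31 over input. In IgG RIP against input, 1 was called higher and 1 lower, beside 6.79% and 5.0% of all tested genes. The 11 called higher than IgG RIP became 6 with total counts, 7 with upper-quartile factors, with version-matched transcripts or without IgG RIP 1 and 2, and 4 with glmTreat. The 8 called higher than input became 4 with total counts, TMM over coding and noncoding genes, glmTreat or version-matched transcripts. The 6 lower than IgG RIP became 1 with glmTreat, and the 6 lower than input became 10 with total counts.

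Genes that modify the receptor with sugars were split. *Lfng*, the Lunatic fringe glycosyltransferase, had 54.6, 54.8 and 49.3 CPM in input, 40.7, 53.2 and 32.8 in IgG RIP, and 160, 315 and 172 in CELF2-KI RIP. Every CELF2-KI RIP library was far above all controls, and the gene rose 5.11-fold over IgG RIP and 4.07-fold over input (edgeR FDR = 5.29e-05 and 9.77e-05). *Pofut1*, which adds the fucose that fringe enzymes extend, rose 2.76-fold and 2.91-fold. *Rfng*, the Radical fringe enzyme, had 24.2, 22.3 and 16.2 CPM in CELF2-KI RIP, beside 40.2 to 73.9 in the controls, with log2 fold changes of -1.02 against IgG RIP and -1.72 against input. The call of *Rfng* against IgG RIP was lost without IgG RIP 3 (-0.97) and without CELF2-KI RIP 3 (-0.87). Of the 5 tested genes of this group, 2 were higher and 1 lower than both controls.

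Genes for the endocytosis of ligands, which pulls on the bound receptor, were called higher where they were called. Of 4 tested, *Mib1* and *Neurl1b*, both ubiquitin ligases of Notch ligands, were higher than both controls, and 0 were lower than either by edgeR, by DESeq2 or at an unadjusted p under 0.05. *Neurl1b* had 383, 669 and 462 CPM in CELF2-KI RIP, beside 120 to 216 in the controls, a rise of 2.73-fold over IgG RIP and 4.0-fold over input (edgeR FDR = 0.000136 and 1.98e-05). *Mib1* rose 2.11-fold and 3.67-fold, and its call against IgG RIP was lost without CELF2-KI RIP 2 (log2 fold change 0.91) and without input 2 (0.97). The same call was lost with total counts (0.70), upper-quartile factors (0.81), TMM over coding and noncoding genes (0.85) and curated transcripts (0.88). It was also lost without the CPM filter (0.99), without IgG RIP 1 and 2 together (0.94) and with glmTreat.

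Genes for the cleavage of the receptor moved both ways. Of 9 tested, 3 were called higher and 1 lower than IgG RIP. *Aph1b*, a γ-secretase subunit, stood at 187, 230 and 165 CPM in CELF2-KI RIP, beside 44.6, 42.3 and 40.6 in IgG RIP. It rose 4.57-fold over IgG RIP and 2.63-fold over input (edgeR FDR = 6.22e-06 and 2.21e-05), with the limit that *Aph1c* is a near-identical paralog and the split of reads between them is uncertain. The *Aph1b* call over input was lost with total counts (log2 fold change 0.92), TMM over coding and noncoding genes (0.998) and glmTreat. *Psenen*, another subunit of the same enzyme, had 32.2, 32.1 and 32.6 CPM in input, 7.20, 11.2 and 16.7 in IgG RIP, but 2.56, 2.39 and 1.70 in CELF2-KI RIP. It fell to 0.191 of its IgG RIP level and 0.069 of its input level (edgeR FDR = 0.0001 and 6.35e-06), the largest fall among the tested pathway genes.

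Among the genes of the nuclear complex, 0 of 9 were called higher than IgG RIP by edgeR or DESeq2, 2 were higher at an unadjusted p under 0.05, and *Snw1*, *Kat2a* and *Hdac1* were lower. *Snw1*, a transcriptional and splicing cofactor, had 13.4, 5.77 and 7.94 CPM in CELF2-KI RIP, beside 25.9 to 39.4 in the controls, at log2 values of -1.67 against IgG RIP and -2.06 against input. *Kat2a*, a histone acetyltransferase, had -1.23 and -1.20. *Spen*, a corepressor partner of RBPJ, was the 1 gene of the 9 called higher than input (2.32-fold), but it was also called higher in IgG RIP than in input (3.35-fold), and it and *Hdac1* are named here after their values were seen. *Rbpj* and *Maml1*, which act in the same complex, are described above and were not lower. In the group for trafficking and turnover, only *Dtx4*, a Deltex ubiquitin ligase, was called of 7 tested, and it rose 2.97-fold over IgG RIP and 2.63-fold over input. The *Dtx4* call over input was lost with total counts (log2 fold change 0.93), TMM over coding and noncoding genes (0.998) and glmTreat. Of 5 other receptors and ligands, *Dner*, a neuronal Delta-like protein, was the one called over IgG RIP (2.11-fold), and it was not called over input (1.35-fold). The receptor gene *Notch4* had log2 fold changes of -0.39 over IgG RIP and 0.58 over input. The ligand gene *Dll4* had 0.04 and 0.31. Neither *Notch4* nor *Dll4* was called in either comparison. The *Dner* call was lost in 9 alternatives, with log2 values from 0.71 with total counts to 0.99 without the CPM filter, among them the fit without input 2 (0.97), and with glmTreat.

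The target genes of the pathway were split. *Hes1*, the repressor that Notch switches on in radial glia, had 7.37, 6.63 and 7.12 CPM in input, 4.32, 3.87 and 4.37 in IgG RIP, but 1.92, 2.23 and 1.16 in CELF2-KI RIP. It was lower than both controls, at log2 fold changes of -1.23 (edgeR FDR = 0.0027) and -1.98 (edgeR FDR = 0.000108). The *Hes1* level in CELF2-KI RIP was low, not far above the filter of 0.5 CPM. Its call against IgG RIP was lost with only the 6 libraries compared (-1.29, edgeR FDR = 0.0188) and with glmTreat. *Hey1*, another target, had 34.2, 32.5 and 30.0 CPM in CELF2-KI RIP, beside 13.0 to 19.8 in the controls, and rose 2.4-fold over IgG RIP but was not called over input (1.76-fold). The *Hey1* call over IgG RIP was lost with total counts (log2 fold change 0.89), upper-quartile factors (0.998) and glmTreat. The other 4 tested targets were not called against IgG RIP.

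**Figure D4:**
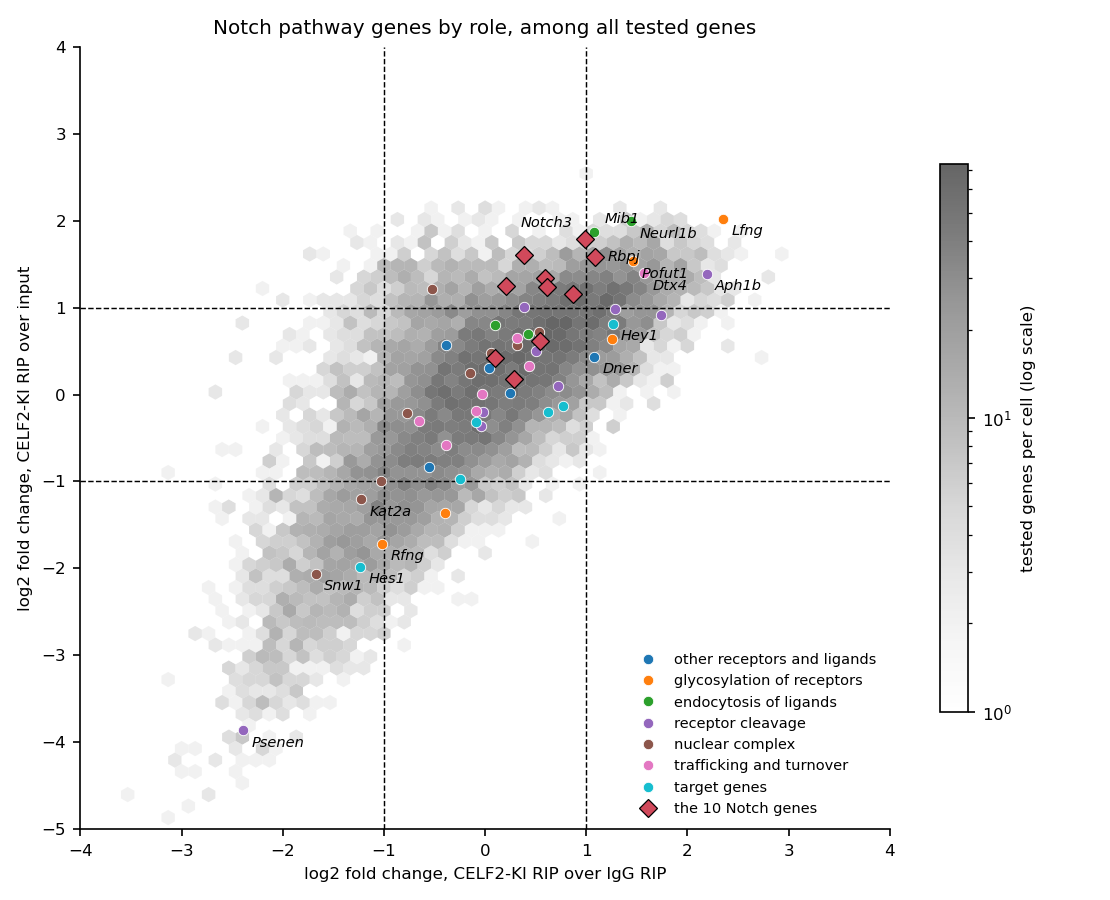
Log2 fold change over IgG RIP (horizontal) and over input (vertical) of the 10 Notch genes (diamonds) and 45 other pathway genes colored by role, with all tested genes as grey cells shaded by number on a log scale. Dashed lines mark 2-fold. With TMM scaling the Notch genes all lie above 0 on both axes (with total counts *Notch1*, *Dll3*, *Jag2* and *Maml1* fall below 0 over IgG RIP, and *Dll3* and *Maml1* over input), while the other pathway genes reach from *Lfng* at the upper right to *Psenen* at the lower left. The axes share the CELF2-KI RIP libraries.

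Markers of radial glia, the cells in which Notch receptors are best known in this tissue, were not called higher. Of the 10 Notch genes, 7 were called higher than input but only 1 higher than IgG RIP. Of 7 listed markers, edgeR and DESeq2 each called 0 higher and 3 lower than IgG RIP, and 0 higher and 3 lower than input. Of all tested genes, edgeR called 13.4% higher and 13.6% lower than IgG RIP, and 14.6% and 15.5% than input. With 7 markers, 0 called higher is near those shares. At an unadjusted p under 0.05 by edgeR, 1 was higher than IgG RIP and 0 were higher than input. Their summed level was 507 to 966 CPM in CELF2-KI RIP, 765 to 849 in IgG RIP and 1160 to 1360 in input. Markers of excitatory neurons had a summed level of 1570 to 2180 CPM in CELF2-KI RIP, 852 to 983 in IgG RIP and 910 to 1080 in input. By edgeR, 3 of the 6 were called higher than both controls, where 7.58% of tested genes were. DESeq2 called 2 of the 6 higher than IgG RIP and 2 higher than input. For mural cells, where *Notch3* is prominent, the summed level was 173 to 215, 162 to 233 and 226 to 263 CPM. Of their 4 markers, 2 were called lower than both controls, where 9.54% of tested genes were. For endothelium it was 158 to 229, 147 to 325 and 198 to 309 CPM. The erythroid markers had 58.9 to 67.5, 263 to 414 and 651 to 834 CPM, and the microglia markers 93.4 to 127, 58.1 to 78.3 and 129 to 165 CPM. In the same order, inhibitory neurons had 381 to 480, 245 to 298 and 307 to 323 CPM, intermediate progenitors 12.9 to 20.5, 9.22 to 13.8 and 14.3 to 20.8, astrocytes 174 to 217, 152 to 200 and 240 to 312, and oligodendrocyte precursors 543 to 647, 537 to 557 and 468 to 537. No listed marker was at 0 in all libraries, and the part of cell composition in the Notch values was not tested.

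Each Notch gene was also set beside the gene with the most similar pattern, by Pearson's r of log2 CPM over the 9 libraries. The points share 3 conditions and their depths, so r is a description with no test. The closest genes were *Akna* for *Notch1* (r = 0.997), *Fat4* for *Notch2* (0.992), *Mfhas1* for *Notch3* (0.998), *Pkd2* for *Dll1* (0.997), *Kcna6* for *Dll3* (0.966), *Dlc1* for *Jag1* (0.989), *Rasal2* for *Jag2* (0.998), *Ctdspl* for *Rbpj* (0.987), *Nectin4* for *Numb* (0.975) and *Zfp592* for *Maml1* (0.961). Among the Notch genes themselves, *Notch1* was most like *Jag2* (0.963), *Rbpj* most like *Dll1* (0.964) and *Notch2* most like *Jag1* (0.959). *Dll3* was least like the others, with r between 0.126 (*Jag2*) and 0.46 (*Dll1*).

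**Figure D5:**
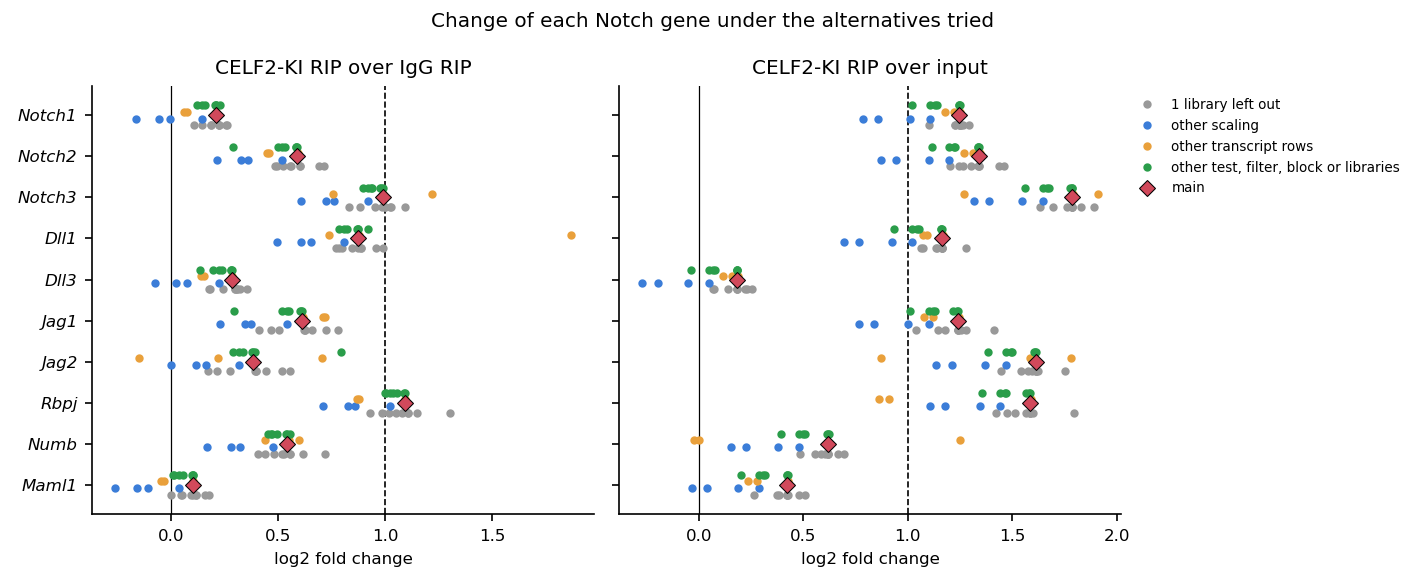
Log2 fold change of each Notch gene over IgG RIP and over input in the main fit (diamonds) and under the alternatives tried (small points, colored by kind). The dashed line marks 2-fold. Values over IgG RIP of *Notch1*, *Dll3*, *Jag2* and *Maml1* cross 0, while those of *Notch2*, *Notch3*, *Dll1*, *Jag1*, *Rbpj* and *Numb* stay above it.

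The size of these changes depended on the scaling of the libraries. Of all calls over IgG RIP, 49.8% were in the direction of higher in CELF2-KI RIP with TMM, 21.5% with total counts, 28.7% with upper-quartile factors and 32.4% with TMM over coding and noncoding genes. Over input these shares were 48.5%, 12.9%, 28.4% and 17.3%, and 36.6% with the size factors of DESeq2. In IgG RIP over input they were 57.6% with TMM, 46.5% with total counts and 38.6% with TMM over coding and noncoding genes. With total counts the median of all tested genes shifted by -0.37 on the log2 scale over IgG RIP and by -0.46 over input, and the median of the 10 Notch genes was then 0.19 and 0.77, above that of all tested genes at -0.42 and -0.27.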

How the data were processed

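The 9 RNA libraries (3 inputs, 3 IgG RIPs and 3 CELF2-KI RIPs) were made from cytoplasm of P0 cortex of *Celf2* KI heterozygotes. According to the labels and the paper's methods, rRNA-depleted directional libraries were checked with FastQC 0.11.9, trimmed with fastp 0.23.4, freed of rRNA reads with Ribodetector 0.3.1 and quantified with kallisto 0.51.1. The authors deposited estimated counts per RefSeq transcript, scaled neither for depth nor for transcript length. The submitters' processing notes name mm10. Reads were not analysed here.

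Of 107384 transcript rows, 86722 matched a gene by accession, ignoring the version, in the table of RefSeq genes for GRCm38.p6. The 20662 unmatched rows were left out of library sizes and tests, and took 9.24% to 9.75% of the counts in input, 11.61% to 12.63% in CELF2-KI RIP and 21.06% to 43.46% in IgG RIP. Counts were summed per gene and rounded. Genes that code for proteins and reached 0.5 CPM in 3 or more libraries entered the quasi-likelihood test of edgeR 4.0.16 in R 4.3.3, with TMM scaling and a model of 1 mean per condition fitted to all 9 libraries. The paper used edgeR 4.4.0 and does not state its design. Calls needed an FDR (Benjamini-Hochberg) below 0.01 together with a 2-fold or larger change. Alternatives covered the scaling, the test (DESeq2 1.42.0 and edgeR's glmTreat), the filter, the transcript rows summed, a replicate block and the libraries. Tables and plots were made with Python 3.11.15. The fit was tested on simulated data.

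Replicate numbers came from the library titles. The deviations of same-numbered libraries from their group means correlated over 11249 genes with r of 0.15 to 0.25 between CELF2-KI RIP and input, of -0.12 to 0.04 between the RIPs of the 2 kinds, and of 0.04 to 0.12 for IgG RIP with input. Libraries with different numbers were not correlated for comparison, so whether the numbers mark pairs was not tested.

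The 10 Notch genes, the list of 46 other pathway genes and the marker lists were chosen with earlier results of these data known. The genes named were all 10 Notch genes, every other pathway gene called in the same direction against both controls, for each role the called gene with the largest change over IgG RIP, and for each Notch gene the gene with the closest pattern. *Hdac1*, *Spen*, *Notch4*, *Dll4* and *Aph1c* (as a paralog) were named outside this rule. Transcript sequences and lengths were not used here, so levels were not compared between genes. Of the 46, 1 gene was not analysed here.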

Additional observations from a re-analysis of the deposited data

How the results depend on the processing

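The counts of Notch genes called depended on the scaling, the test and the transcripts summed. Over IgG RIP and above both controls, where 1 gene was called, 0 were called with total counts, upper-quartile factors, TMM over coding and noncoding genes, glmTreat against 2-fold, no CPM filter, curated transcripts only, or IgG RIP 1 and 2 left out, and 0 to 2 when 1 library was left out. Transcripts matched by version gave 1 call, which was *Notch3* (log2 fold change 1.22) in place of *Rbpj*. The version of the curated row of *Notch3* did not match, so that value came from the predicted row XM_017317293.1 alone. This row held 10.7% to 35.2% of the counts of *Notch3* in a library. Over input the 7 calls became 3 with total counts or TMM over coding and noncoding genes (*Notch3*, *Jag2* and *Rbpj*), 1 with glmTreat (*Notch3*) and 4 with curated transcripts, 6 with upper-quartile factors or only the 6 libraries compared (without *Dll1*) or version-matched transcripts (without *Rbpj*), and all 7 were called in each of the 9 fits without 1 library. The share of all tested genes called higher than input fell too, from 14.6% to 3.48% with total counts, 4.63% with TMM over coding and noncoding genes, 2.22% with glmTreat and 9.75% with curated transcripts. Over IgG RIP the share fell from 13.4% to 6.14%, 8.84%, 3.57% and 10.0% in the same order, and was 7.94% with upper-quartile factors, 9.56% without the CPM filter and 13.4% without IgG RIP 1 and 2. In IgG RIP over input the 2 calls became 1 with total counts, the size factors of DESeq2, TMM over coding and noncoding genes, the Wald test of DESeq2 or coding transcripts only (an alternative added after the rows of *Numb* were seen), 0 with glmTreat or without IgG RIP 1 and 2, 3 with curated transcripts (*Notch3* added, at 1.16), and 1 to 2 without 1 library. Of all tested genes, 6.79% were called higher there, 0.655% with glmTreat, 3.38% with curated transcripts and 3.59% without IgG RIP 1 and 2. DESeq2 called 3 transcript rows over IgG RIP in place of 0 and 6 over input in place of 1, where leaving out 1 library gave 1 to 2. With the replicate block the counts over IgG RIP, over input, in IgG RIP over input and above both controls were 1, 7, 2 and 1, so it changed no call of a Notch gene.

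The following log2 fold changes changed sign. Over IgG RIP, *Notch1* was -0.16 with total counts, -0.056 with upper-quartile factors and -0.0078 with TMM over coding and noncoding genes, *Dll3* was -0.076 with total counts, *Jag2* was -0.0024 with total counts and -0.15 with curated transcripts, and *Maml1* was -0.26, -0.16 and -0.11 with the same 3 scalings, -0.046 with curated and -0.033 with version-matched transcripts, and -0.0001 to 0.175 without 1 library. Over input, *Dll3* was -0.27, -0.052 and -0.20 with the 3 scalings and -0.039 with only the 6 libraries compared, *Numb* was -0.0013 with curated and -0.021 with version-matched transcripts, and *Maml1* (-0.033) and *Dner* (-0.029) turned with total counts. In IgG RIP over input, *Dll1* was -0.79 and *Dll3* 0.019 with curated transcripts, *Rbpj* was -0.011 with version-matched transcripts, and *Numb* was -0.017 with total counts, -0.10 with TMM over coding and noncoding genes, -0.55 with curated and -0.62 with version-matched transcripts, and -0.0996 to 0.2122 without 1 library. Of the other pathway genes, 1 to 7 were above and 1 to 6 below both controls, against 6 and 5. The cause of these changes was not tested.

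The estimated counts carry no interval of their own for the assignment of reads to transcripts of a gene. The IgG RIP libraries differed most among themselves in the share of unmatched rows, and no wild-type library was analysed here.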
